A study of Homo sapiens with 12 samples.

Results

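The genes described here encode the beta subunits of human chorionic gonadotropin (hCG) and of luteinizing hormone. The list held 7 symbols, CGB1, CGB2, CGB5, CGB7, CGB8, LHB and CGA, and 6 of them were among the 19907 symbols of the expression tables. CGA, the gene of the shared alpha subunit, had no row and was not analysed here. A seventh beta gene appeared under the symbol CGB, an older name of CGB3 in RefSeq; it was outside the list and is shown beside the members under the name CGB. The members were selected on measured values of these same libraries, without a record of which comparison chose them, so their levels and fold changes are given as a description, with no p-value. Where members are counted as past a threshold of the fit over all genes, the share of all genes past it stands beside the count and nothing is read from the count.

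RNA was sequenced in 12 libraries from MDA-MB-231, a human triple-negative breast cancer line with mesenchymal features, in 4 groups of 3. The wt-GR line was 1 clone recovered without a targeted change from a CRISPR/Cas9 procedure, and the S134A-GR line was 1 knock-in clone in which both copies of the glucocorticoid receptor (GR) gene encode alanine in place of a serine that is normally phosphorylated. Before treatment, both lines spent 18 h without full serum, in medium with 1% serum stripped by dextran-coated charcoal. TGFβ1 at 10 ng/mL, or vehicle, was then applied for 6 h. The study asked how TGFβ1 responses depend on phosphorylation of this residue. With 1 clone per line, genotype and clone cannot be told apart, and nothing in the labels says that the 3 libraries of a group came from separate cultures, so their spread may be technical. In bulk RNA, more expressing cells and more RNA per cell cannot be told apart.

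hCG and luteinizing hormone are dimers of a common alpha subunit and a specific beta subunit, and both act on the receptor LHCGR. The syncytiotrophoblast of the placenta is the normal source of hCG and the pituitary gonadotrope that of luteinizing hormone, and free hCG beta subunit is a known product of many carcinomas outside the placenta. TGFβ1 signals through receptor kinases that activate SMAD transcription factors.

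The 7 beta genes lie within 42.9 kb of chromosome 19 (chr19:49015980-49058860, hg38), with LHB at one end and CGB7 at the other. CGB (CGB3), CGB5, CGB7 and CGB8 encode hCG beta, whereas CGB1 and CGB2 are related copies whose predicted protein differs. The coding sequences of CGB5 and CGB8 were 100% identical and those of CGB and CGB5 99.8% identical, against 78.4% for LHB and CGB. When each reference transcript was cut into all stretches of 75 bases, the length of 1 sequencing read, 78.6% of the stretches of CGB5, 75.4% of CGB8, 69.0% of CGB, 60.4% of CGB1 and 57.4% of CGB2 occurred unchanged in another of the 7 genes. CGB7, whose transcript is longer, shared 15.1%, and LHB shared 0 of its 450 stretches. A read from a shared stretch cannot by itself be assigned to 1 copy, though its paired read may fall on bases of 1 copy alone. How such reads were handled in the counting is not given in the sources used here. The split among the CGB copies is therefore uncertain, while LHB and the sum of the 6 CGB genes are less exposed to it.

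**Figure D1:**
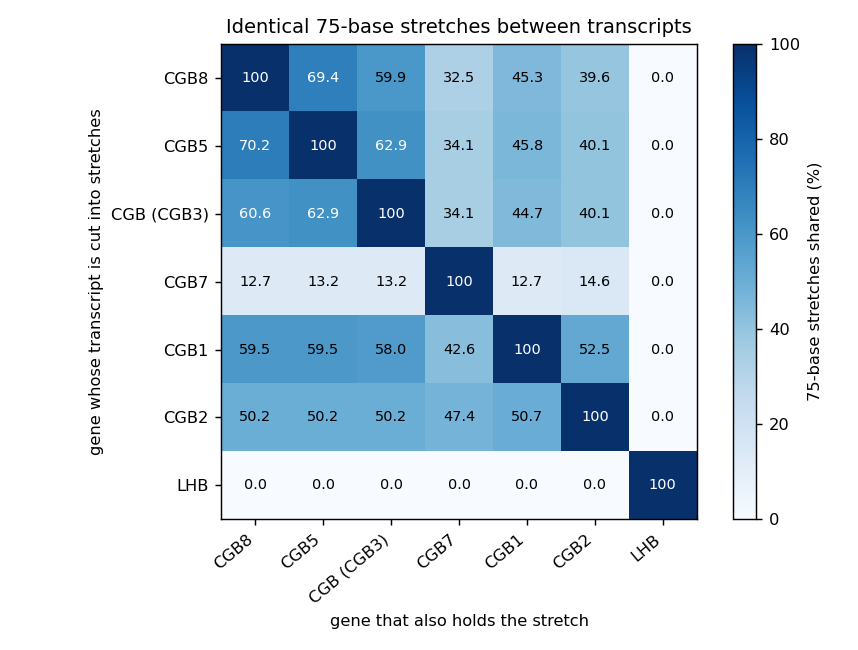
Percentage of the 75-base stretches of each gene's reference transcript (rows) that also occur unchanged in the transcript of another gene (columns). CGB5, CGB8 and CGB share 59.9 to 70.2% of their stretches with each other, and LHB shares 0 with each of the others.

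One coding stretch held by all 6 CGB genes is shown with its closest counterpart in LHB to make the near-identity visible; capitals mark the 5 bases at which LHB differs. In CGB5 the stretch lies on the plus strand at chr19:49044633-49044707, and in LHB on the minus strand at chr19:49016584-49016658 (hg38).
All 6 CGB genes: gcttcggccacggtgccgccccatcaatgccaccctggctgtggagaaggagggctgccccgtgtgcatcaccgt
LHB: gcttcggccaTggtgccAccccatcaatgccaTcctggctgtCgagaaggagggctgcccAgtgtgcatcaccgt

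By global alignment of the 250 bases before each RefSeq start, CGB and CGB5 were 96.0% identical and CGB and CGB8 90.4%. The values were 69.9% for CGB1 and CGB2, and 50.5% for CGB8 and LHB. Unpaired bases at the ends counted as differences, and the annotated starts are offset between copies. The run of bases that opens the CGB window, for example, lies further inside the CGB8 window. These values therefore mix the offset of the starts with base differences, and likeness at matching positions was not measured. One promoter of each kind is printed below from RefSeq (GRCh38.p14): CGB8 (minus strand, chr19:49049112-49049361), CGB2 (plus strand, chr19:49031640-49031889), CGB7 (minus strand, chr19:49057750-49057999) and LHB (minus strand, chr19:49017092-49017341). Capitals mark the cyclic AMP response element (TGACGTCA) and the SP1 box (GGGCGG, or CCGCCC on the other strand).
CGB8: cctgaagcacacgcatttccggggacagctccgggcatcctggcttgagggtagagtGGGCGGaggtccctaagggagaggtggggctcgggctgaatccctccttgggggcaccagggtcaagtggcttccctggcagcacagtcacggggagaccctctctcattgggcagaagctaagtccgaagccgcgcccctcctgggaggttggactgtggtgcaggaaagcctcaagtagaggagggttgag
CGB2: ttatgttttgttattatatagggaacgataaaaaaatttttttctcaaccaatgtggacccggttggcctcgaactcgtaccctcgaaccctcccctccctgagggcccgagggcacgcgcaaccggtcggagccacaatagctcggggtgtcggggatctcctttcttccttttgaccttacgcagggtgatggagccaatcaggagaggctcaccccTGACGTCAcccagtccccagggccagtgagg
CGB7: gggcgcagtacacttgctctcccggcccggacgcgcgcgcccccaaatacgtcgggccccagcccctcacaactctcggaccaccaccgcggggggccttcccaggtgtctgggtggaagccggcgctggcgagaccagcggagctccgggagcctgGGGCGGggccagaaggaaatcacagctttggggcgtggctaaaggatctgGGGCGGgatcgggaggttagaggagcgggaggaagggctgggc
LHB: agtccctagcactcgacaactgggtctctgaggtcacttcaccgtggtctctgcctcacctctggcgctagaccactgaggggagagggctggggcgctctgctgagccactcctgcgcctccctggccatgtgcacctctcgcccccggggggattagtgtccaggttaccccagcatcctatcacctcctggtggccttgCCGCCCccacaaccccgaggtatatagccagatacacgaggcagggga

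These letters divided the promoters. The cyclic AMP response element occurred in CGB1 and CGB2 and in none of the other 5 genes, against 1.65% of 35116 RefSeq promoter windows searched on both strands. The SP1 box occurred in CGB, CGB5, CGB7, CGB8 and LHB, against 42.6% of all windows. The AP-2 site GCCNNNGGC (19.8% of windows) and the SMAD-binding letters CAGACA (13.6%) were found in CGB7 alone, whereas the palindromic SMAD box GTCTAGAC (0.182%), the GR half-site AGAACA (12.4%) and the AP-1 site TGANTCA (6.57%) occurred in none of the 7. The CGB7 window (chr19:49057750-49057999) lies inside the gene span used for its transcript (chr19:49054274-49058860), so it precedes the RefSeq start and not the start of that span. A match is a run of letters and not a measured binding site, and absence from this window says nothing about the factor.

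The library totals ran from 56362036 to 129832227 reads, and the floor of 3 reads corresponded to 2.15 to 4.89 normalized read counts. No 2 libraries held identical values. MDA-MB-231 markers such as VIM, CD44 and AXL were abundant. Of markers of luminal hormone receptor-positive cells, the estrogen receptor gene ESR1 averaged 0.702 to 6.02 normalized counts in the groups, and PGR was not analysed here. The other markers of that list were not near the floor: FOXA1 averaged 198 to 289 and ERBB2 7734 to 10494. Both were higher in S134A-GR than in wt-GR cells under both treatments (FDR under 0.05 by limma). NR3C1, the gene of GR itself, averaged 11771 (vehicle) and 10775 (TGFβ1) normalized counts in the wt-GR line, and 8815 and 8692 in the S134A-GR line; a change of 1 amino acid cannot be read from a gene's count, so the genotype labels were not checked. SMAD7 and SKIL, feedback regulators of TGFβ signalling, rose with TGFβ1 by 1.19 and 1.62 on the log2 scale in the wt-GR line, and by 1.32 and 1.51 in the S134A-GR line (FDR under 0.05 by limma).

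Every measured beta gene stood higher in all TGFβ1 libraries than in all vehicle libraries of the same line; such a separation, in either direction, was seen for 33.9% of all genes in wt-GR and 35.6% in S134A-GR cells. The sum of the 6 CGB genes, which depends less on how reads were divided among them, was 76.1 ± 12.2 normalized counts under vehicle and 694 ± 40.5 under TGFβ1 in wt-GR cells (mean ± SD, n = 3), a 9.13-fold ratio of means. In S134A-GR cells it was 217 ± 20.7 under vehicle and 1183 ± 102 under TGFβ1, a 5.46-fold ratio. The sum was 2.85 times as high in S134A-GR as in wt-GR cells with vehicle, and 1.70 times as high with TGFβ1.

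By library, the summed CGB count under vehicle was 84.7, 81.4 and 62.1 in wt-GR and 236, 195 and 220 in S134A-GR cells. Under TGFβ1 it was 712, 648 and 723 in wt-GR and 1098, 1297 and 1155 in S134A-GR cells. The 4 groups therefore did not overlap, in the order wt-GR vehicle, S134A-GR vehicle, wt-GR TGFβ1 and S134A-GR TGFβ1. On the log2(normalized count + 1) scale the change with TGFβ1 was 3.18 ± 0.12 (SE) in wt-GR and 2.44 ± 0.12 in S134A-GR cells, and the difference between these responses was -0.74 ± 0.18.

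**Figure D2:**
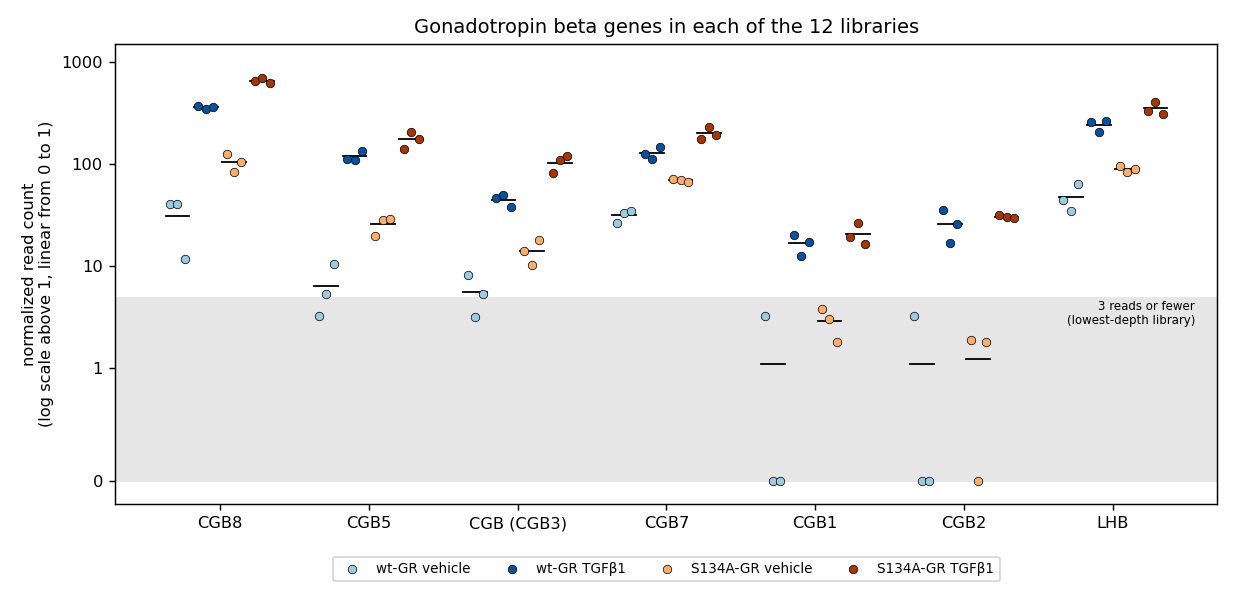
Normalized read counts of the 7 beta genes in each of the 12 libraries (points, 3 per group; bars, group means), on an axis that is logarithmic above 1 and linear from 0 to 1; grey marks 3 reads or fewer in the library of lowest depth. TGFβ1 libraries lie above the vehicle libraries of the same line for all 7 genes, and CGB1 and CGB2 under vehicle lie in the grey band.

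CGB8 had the highest normalized counts of the CGB copies in 3 of the 4 groups; in wt-GR vehicle cells its mean of 30.8 was close to that of CGB7, 31.2. Its normalized counts in wt-GR cells were 40.7, 40.2 and 11.6 under vehicle and 373, 348 and 362 under TGFβ1. In S134A-GR cells they were 125, 84.1 and 103 under vehicle and 651, 701 and 619 under TGFβ1. The third wt-GR vehicle library, with 11 reads, stood well below the other two, with 25 and 38 reads; the summed CGB count of that library was 62.1. The log2 fold change with TGFβ1 was 3.70 ± 0.34 (SE) in wt-GR and 2.66 ± 0.34 in S134A-GR cells, and that of S134A-GR against wt-GR cells was 1.90 ± 0.34 under vehicle and 0.86 ± 0.34 under TGFβ1. Without the third wt-GR vehicle library the difference between the lines under vehicle was 1.33, and that between the TGFβ1 responses was -0.46 in place of -1.04.

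CGB5, which encodes the same protein as CGB8, was the less abundant of the pair in every group. Its normalized counts in wt-GR cells were 3.26, 5.28 and 10.5 under vehicle, from 2, 5 and 10 reads, and 112, 109 and 133 under TGFβ1. In S134A-GR cells they were 19.8, 28.4 and 28.5 under vehicle and 140, 204 and 177 under TGFβ1. All 4 groups were separate. The log2 fold change with TGFβ1 was 4.14 ± 0.32 in wt-GR and 2.72 ± 0.32 in S134A-GR cells, and the difference of -1.42 ± 0.45 was the lowest among the members; it was -0.41 when 16 rather than 1 was added before the logarithm.

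CGB7, the copy at the far end of the cluster and the one with most sequence of its own, had the smallest log2 fold change with TGFβ1 of the 6 CGB genes in both lines when 1 was added before the logarithm. Its counts in wt-GR cells were 26.1, 32.8 and 34.7 under vehicle and 124, 113 and 148 under TGFβ1. In S134A-GR cells they were 70.7, 68.9 and 66.8 under vehicle and 176, 228 and 193 under TGFβ1. Again no groups overlapped. The log2 fold change with TGFβ1 was 2.01 ± 0.18 in wt-GR and 1.51 ± 0.18 in S134A-GR cells. This place in the order depended on the constant: with 16 added the values of CGB7 were 1.61 and 1.33, above those of CGB1, 0.93 and 0.95, and in wt-GR cells also above those of CGB2, 1.28, and CGB, 1.49. In the reference annotation a second protein-coding gene model and a transcribed pseudogene overlap CGB7 on the same strand, so its reads may include theirs.

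CGB1 and CGB2 were at or near the floor under vehicle. CGB1 had 2, 0 and 0 reads in wt-GR and 4, 3 and 2 in S134A-GR vehicle libraries, against 18, 17 and 17 and 20, 26 and 23 under TGFβ1. CGB2 had 2, 0 and 0 and 2, 0 and 2 reads under vehicle, against 32, 23 and 25 and 33, 30 and 41 under TGFβ1. Both were thus detected above the floor in all 6 TGFβ1 libraries. Because fitted folds of such genes depend on the constant added, depth-adjusted ratios of pooled reads are given with exact 95% intervals. These intervals cover at most counting error, and are too narrow even for that if both mates of a pair were counted. TGFβ1 against vehicle was 20.1 (5.29 to 170) for CGB1 and 30.9 (8.28 to 260) for CGB2 in wt-GR cells, and 7.07 (3.52 to 16.1) and 24.0 (9.09 to 89.7) in S134A-GR cells. The ratio of S134A-GR to wt-GR cells under vehicle was 3.56 (0.737 to 33.9) for CGB1, and none is given for CGB2, which had at most 2 reads in each of those libraries. Under TGFβ1 the ratio was 1.25 (0.862 to 1.83) for CGB1 and 1.23 (0.909 to 1.67) for CGB2, and the library values of the lines overlapped. One further protein-coding gene model overlaps CGB1 and CGB on their strand and CGB2 on the opposite strand. Whether the counting used strand is not given in the sources used here.

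The gene listed as CGB (CGB3), outside the list, was also higher under TGFβ1 in every library of both lines. Its counts were 8.15, 3.17 and 5.26 in wt-GR vehicle and 46.7, 49.1 and 37.7 in wt-GR TGFβ1 libraries. In S134A-GR cells they were 14.1, 10.1 and 17.8 under vehicle and 80.8, 108 and 119 under TGFβ1. The log2 fold change with TGFβ1 was 2.86 ± 0.32 in wt-GR and 2.80 ± 0.32 in S134A-GR cells, and that of S134A-GR against wt-GR cells 1.24 ± 0.32 with vehicle and 1.18 ± 0.32 with TGFβ1. The wt-GR vehicle libraries held 5, 3 and 5 reads of CGB, and with 16 added the change with TGFβ1 was 1.49 in wt-GR and 1.98 in S134A-GR cells, and the difference between the lines under vehicle 0.48.

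LHB, the luteinizing hormone beta gene, shares no identical 75-base stretch with the CGB genes and so is less exposed to their exchange of reads. It still matched the printed CGB stretch at 70 of 75 bases, and whether reads were exchanged with LHB was not tested. The LHB counts in wt-GR cells were 44.0, 34.9 and 64.2 under vehicle and 257, 205 and 266 under TGFβ1. In S134A-GR cells they were 95.2, 83.1 and 88.2 under vehicle and 332, 407 and 311 under TGFβ1. The 4 groups did not overlap here either. The log2 fold change with TGFβ1 was 2.36 ± 0.20 in wt-GR and 1.96 ± 0.20 in S134A-GR cells, and that of S134A-GR against wt-GR cells 0.93 ± 0.20 with vehicle and 0.53 ± 0.20 with TGFβ1.

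**Figure D3:**
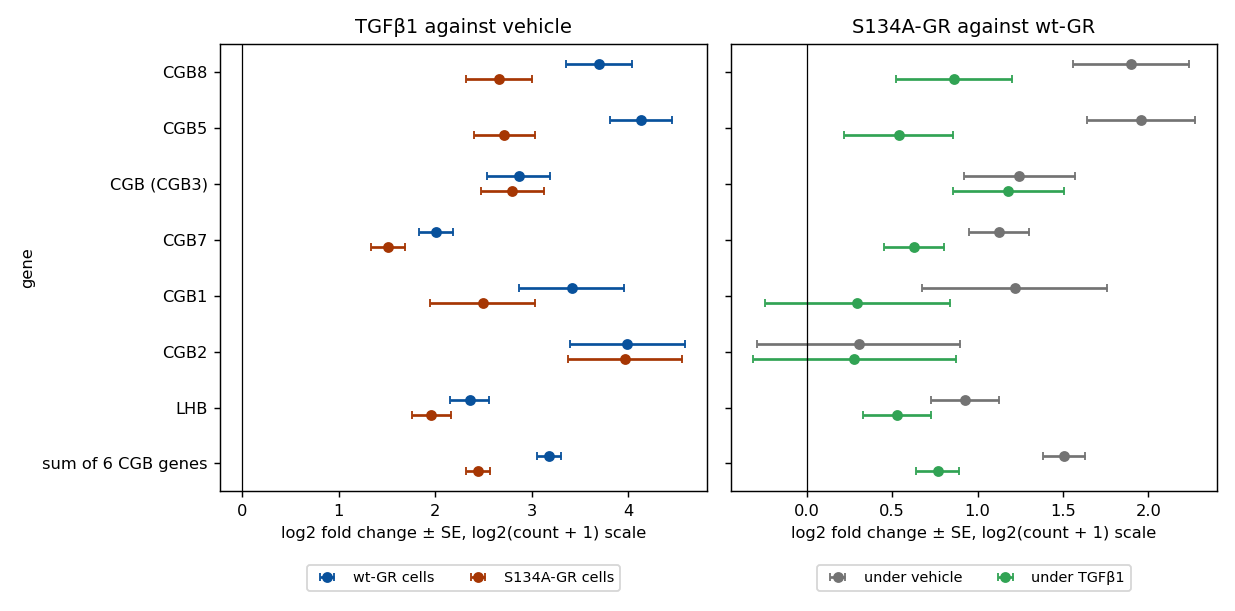
Log2 fold changes with their standard errors on the log2(normalized count + 1) scale for the 7 beta genes and the sum of the 6 CGB genes, for TGFβ1 against vehicle in each line (left) and for S134A-GR against wt-GR under each treatment (right). All points lie above 0, and S134A-GR minus wt-GR differences of the change with TGFβ1 run from -1.42 (CGB5) to -0.03 (CGB2).

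Against the 18579 genes tested, the counts of members were as follows, with the background printed beside them because the members were chosen from these libraries. In wt-GR cells, 6 of 6 members were past FDR 0.05 and higher with TGFβ1 (11.2% of all genes), and 6 of 6 also had a log2 fold change no smaller than 1 (1.18% of all genes); their median log2 fold change was 3.56 and that of all genes -0.00459. In S134A-GR cells the counts were 6 of 6 (10% of all genes) and 6 of 6 (0.764% of all genes), with medians of 2.58 and -0.00972.

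Between the lines under vehicle, 4 of 6 members, CGB5, CGB7, CGB8 and LHB, were past FDR 0.05 and higher in S134A-GR cells (25% of all genes), and 3 of them also with a log2 fold change no smaller than 1 (5.06%). CGB1 also passed FDR 0.05, for 5 members in all, when 0.5 was added in place of 1 or the first wt-GR vehicle library was left out. Under TGFβ1, 3 of 6, CGB7, CGB8 and LHB, were past it (23.1% of all genes), and 0 with a log2 fold change that large (3.88%). The medians over the members were 1.17 and 0.53, beside 0.02 and 0.01 over all genes. Libraries of the lines did not overlap for 4 of 6 members under either treatment (57.3% of all genes under vehicle and 55.6% under TGFβ1). The count under TGFβ1 fell to 1, CGB7, without any one of the 3 wt-GR TGFβ1 libraries, the first or the third S134A-GR vehicle library, or the first or the second S134A-GR TGFβ1 library. For how far the lines differ in their TGFβ1 response, all 6 members had a value below 0, from -0.03 to -1.42, with 1 added before the logarithm; with 16 added CGB1 was at 0.02 and CGB2 at 0.15, and without 1 library CGB2 reached 0.32. Of the 6, 0 were past FDR 0.05 (0.414% of all genes); 1 member, CGB8, was past it with DESeq2, and 1, CGB5, when the third wt-GR vehicle library was left out. Each line comparison shares a group of libraries with each TGFβ1 comparison, so their values are set side by side and not as separate evidence.

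Levels can be ordered only per length of transcript. Per kb of reference transcript, wt-GR TGFβ1 cells held 463 ± 62.5 normalized counts of LHB, 407 ± 14.3 of CGB8, 135 ± 15.1 of CGB5, 59.6 ± 8.26 of CGB7, 50.7 ± 6.84 of CGB, 36.3 ± 13.1 of CGB2 and 23.9 ± 5.52 of CGB1 (SD, n = 3). LHB and CGB8 did not differ there by more than their summed SDs, nor did the neighbours in the order from CGB7 down to CGB1. In S134A-GR TGFβ1 cells CGB8, at 741 ± 46.1, and LHB, at 668 ± 96.2, led again, without a separation beyond their spread. Under vehicle LHB came first in both lines, at 91.0 ± 28.7 in wt-GR and 170 ± 11.6 in S134A-GR cells. If only reads from stretches unique to a gene had been counted, the level per 1000 unique stretches in wt-GR TGFβ1 cells would order CGB8 (1899), CGB5 (687), LHB (539), CGB (179), CGB2 (99.4), CGB7 (75.5) and CGB1 (67.7), so the places of LHB and CGB7 rest on how shared reads were treated.

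The make-up of the 7 genes' reads shifted with TGFβ1. CGB8 made up 25.1 ± 13.9% of them in wt-GR vehicle and 38.6 ± 2.11% in wt-GR TGFβ1 libraries, and 33.9 ± 3.81% and 43.0 ± 2.30% in S134A-GR cells. The share of CGB7 was 25.3 ± 4.39% and 13.7 ± 1.11% in wt-GR cells, and 22.6 ± 1.91% and 12.9 ± 0.57% in S134A-GR cells. LHB moved from 38.3 ± 11.0% to 25.8 ± 1.54% and from 29.1 ± 0.717% to 22.8 ± 1.38%. The ranges of vehicle and TGFβ1 libraries were separate in both lines for each of these 3 genes. Shares sum to 100% in a library and so move together.

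**Figure D4:**
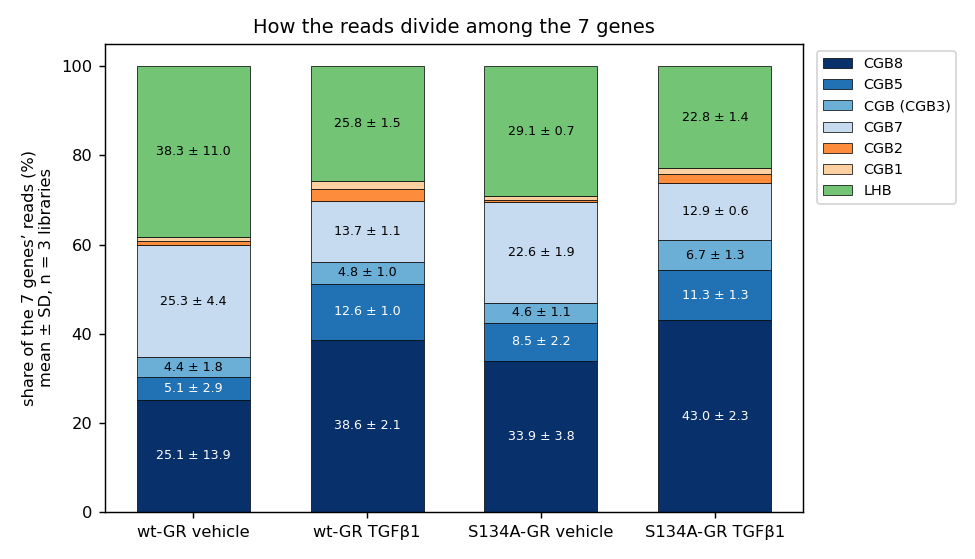
Mean share of each gene in the reads of the 7 beta genes by group (stacked bars, percent; printed values are mean ± SD over 3 libraries). CGB8 takes a larger and CGB7 and LHB a smaller share in both TGFβ1 groups than in the vehicle group of the same line.

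Of the other genes around the cluster, within 500 kb on either side, 54 were tested. The nearest on the CGB7 side are NTF4, the neurotrophin 4 gene, 2.21 kb from the cluster, and KCNA7, a voltage-gated potassium channel gene, 8.54 kb from it. KCNA7 had normalized counts of 3.26, 3.17 and 4.21 in wt-GR vehicle and 36.7, 29.3 and 28.5 in wt-GR TGFβ1 libraries. In S134A-GR cells it had 9.43, 7.10 and 11.6 under vehicle and 47.6, 64.8 and 67.2 under TGFβ1. Its groups stood in the same order as those of the summed CGB genes, with no overlap. The wt-GR vehicle values of KCNA7 came from 2, 3 and 4 reads, at or near the floor. Fitted folds against that group therefore depend on the constant added. KCNA7 rose with TGFβ1 by 2.84 ± 0.29 on the log2 scale in wt-GR cells (adjusted p = 7.6e-06, limma) and by 2.56 ± 0.29 in S134A-GR cells (adjusted p = 2.48e-05), and was higher in S134A-GR than in wt-GR cells by 1.17 ± 0.29 under vehicle (adjusted p = 0.00398) and 0.90 ± 0.29 under TGFβ1 (adjusted p = 0.021). The last call was lost without any one of 4 TGFβ1 libraries, the second or the third of either line, with log2 fold changes of 0.81 to 0.85.

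NTF4 was close to the floor under vehicle, with 4, 3 and 3 reads in wt-GR and 4, 2 and 1 in S134A-GR libraries, and had 12, 22 and 17 and 19, 41 and 37 reads under TGFβ1. Vehicle and TGFβ1 libraries did not overlap in either line. It rose with TGFβ1 by 1.70 ± 0.45 in wt-GR cells (adjusted p = 0.014, limma) and by 3.22 ± 0.45 in S134A-GR cells (adjusted p = 0.000135), and the call in wt-GR cells was lost without the second wt-GR vehicle library (1.56). Of the 75-base stretches of the NTF4 transcript, 48 of 1888 occur within the CGB cluster, against 0 of 4077 for KCNA7.

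The next genes outward moved far less. RUVBL2, an AAA+ ATPase gene that ends beside LHB, differed with TGFβ1 by 0.13 ± 0.04 in wt-GR cells (adjusted p = 0.0306) and 0.08 ± 0.04 in S134A-GR cells (adjusted p = 0.17, limma). GYS1, which encodes glycogen synthase, rose by 0.23 ± 0.04 (adjusted p = 0.000695) and 0.16 ± 0.04 (adjusted p = 0.0102). FTL, which encodes ferritin light chain, differed by 0.01 ± 0.04 and -0.01 ± 0.04, and SNRNP70, a U1 splicing protein gene, by 0.17 ± 0.04 (adjusted p = 0.00753) and 0.00 ± 0.04. Among the 52 neighbours other than NTF4 and KCNA7, 4 rose and 5 fell in wt-GR cells and 1 rose and 7 fell in S134A-GR cells, and the largest rise past FDR 0.05 was that of GYS1 in both.

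**Figure D5:**
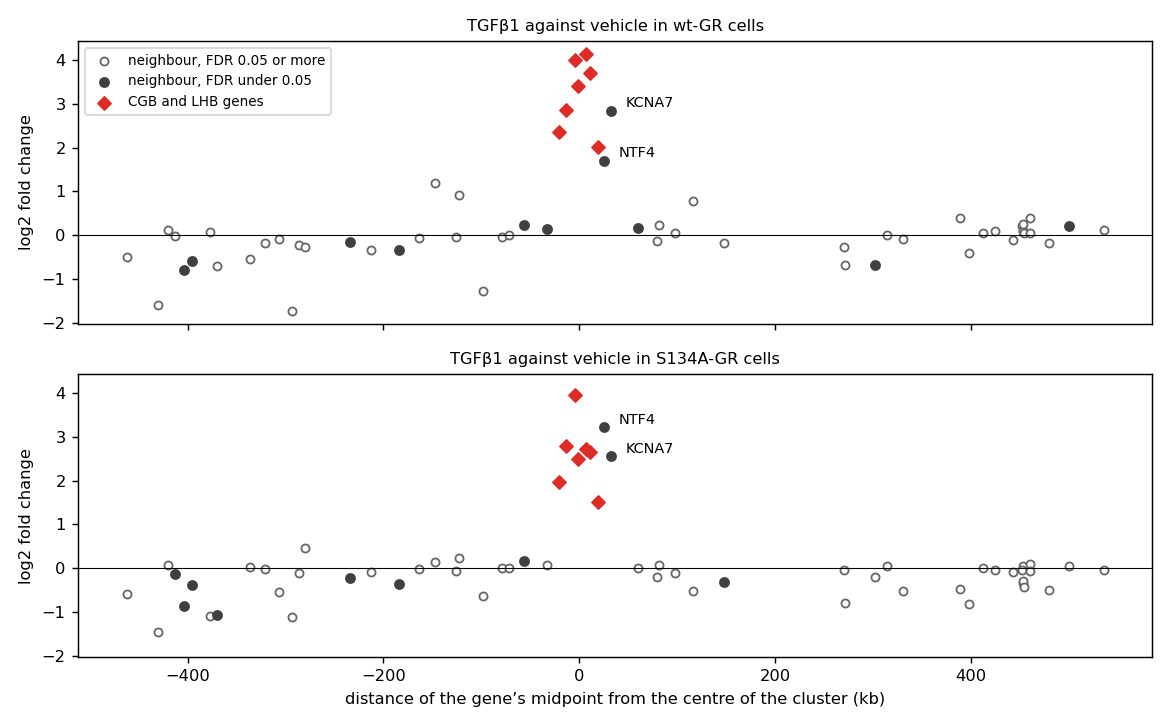
Log2 fold change with TGFβ1 in wt-GR (top) and S134A-GR cells (bottom) for the beta genes (diamonds) and 54 tested neighbours (circles, filled where FDR is under 0.05), against the distance of each gene's midpoint from the centre of the cluster in kb. NTF4 and KCNA7, beside CGB7, lie at 1.70 and 2.84 in wt-GR and 3.22 and 2.56 in S134A-GR cells, and the other neighbours that passed the threshold upward lie at or below 0.23.

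Between the lines under vehicle, 18 of the 54 neighbours were higher with S134A-GR (25% of all genes) and 3 lower (26.5% of all genes). Under TGFβ1 17 were higher (23.1% of all genes) and 8 lower (25.7% of all genes). FTL was higher with S134A-GR by 0.47 ± 0.04 under vehicle (adjusted p = 4.61e-07, limma) and 0.45 ± 0.04 under TGFβ1 (adjusted p = 7e-07). Other neighbours differed more, in both directions. Under vehicle the log2 differences were -2.72 ± 0.33 for FCGRT, 1.70 ± 0.24 for DKKL1 and 1.35 ± 0.27 for SLC6A16 (FDR under 0.05 by limma).

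Among 23 transcription factors described for CGB, CGA or LHB, 22 were tested; 2 rose and 4 fell with TGFβ1 in wt-GR cells (11.2% and 9.82% of all genes), and 3 rose and 8 fell in S134A-GR cells (10% and 8.69% of all genes). TFAP2C, an AP-2 factor of trophoblast and breast, had normalized counts of 2627, 2569 and 2588 in wt-GR vehicle and 960, 899 and 1009 in wt-GR TGFβ1 libraries. In S134A-GR cells it had 1273, 1089 and 1209 under vehicle and 596, 498 and 574 under TGFβ1, so its groups ran in the reverse order of the CGB genes. It fell with TGFβ1 by 1.44 on the log2 scale in wt-GR cells (SE 0.08, adjusted p = 9.03e-09, limma) and by 1.10 in S134A-GR cells (SE 0.08, adjusted p = 1.71e-07). Its paralog TFAP2A differed with TGFβ1 by -0.14 ± 0.15 in wt-GR cells (adjusted p = 0.59) and fell by 0.47 in S134A-GR cells (adjusted p = 0.0463).

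PPARG and RXRA, which form a heterodimer with a role in trophoblast, both fell with TGFβ1. The log2 fold changes were -0.40 and -0.90 in wt-GR cells and -0.37 and -0.61 in S134A-GR cells, all past FDR 0.05 by limma. JUN, an AP-1 subunit, rose by 0.50 ± 0.03 and 0.41 ± 0.03. GATA2, a zinc-finger factor of gonadotropes and trophoblast, and its paralog GATA3 fell in S134A-GR cells by 0.37 (adjusted p = 0.00105) and 0.31 (adjusted p = 0.014), and their values in wt-GR cells were -0.11 (adjusted p = 0.287) and -0.18 (adjusted p = 0.131). EGR1, a factor of the gonadotropin-releasing hormone response of LHB, differed with TGFβ1 by 0.18 ± 0.07 in wt-GR cells (adjusted p = 0.0871) and -0.12 ± 0.07 in S134A-GR cells (adjusted p = 0.291), and NR3C1 by -0.12 (adjusted p = 0.227) and -0.02 (adjusted p = 0.877). Between the lines, 5 factors were higher and 8 lower with S134A-GR under vehicle (25% and 26.5% of all genes), and 3 and 7 under TGFβ1 (23.1% and 25.7%). NR3C1 was lower in S134A-GR cells by 0.41 under vehicle on the log2 scale (adjusted p = 0.00012) and by 0.31 under TGFβ1 (adjusted p = 0.00134).

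Of 28 syncytiotrophoblast genes, 21 were tested, and with TGFβ1 4 rose and 1 fell in wt-GR cells (11.2% and 9.82% of all genes) and 3 rose and 1 fell in S134A-GR cells (10% and 8.69%). SDC1 and ENG, which encode the cell-surface proteins syndecan 1 and endoglin, responded to different extents in the lines: the difference of responses was -0.24 for each (adjusted p = 0.0256 and 0.0446, limma). Of the 22 listed, 11 averaged under 10 normalized counts in every group. Among these, GCM1, the factor of trophoblast fusion, averaged at most 5.05 in a group, ERVW-1 (syncytin-1) at most 1.11, ERVFRD-1 (syncytin-2) at most 1.27 and INSL4 at most 3.94, and PSG1 was listed at 0 reads in all libraries. Another 9 genes of the list had group means of 229 to 47546 throughout: HSD17B1, PAPPA, PAPPA2, PGF, ADAM12, SDC1, TFPI2, PLAC1 and ENG. The largest differences in the list were between the lines. KISS1, the kisspeptin gene, had 564, 523 and 680 normalized counts in wt-GR and 56.6, 45.6 and 19.6 in S134A-GR vehicle libraries (log2 fold change -3.94 ± 0.29, adjusted p = 8.08e-08, limma). PGF, placental growth factor, was lower in S134A-GR cells by 1.25 (adjusted p = 6.53e-11), and INHA, the inhibin alpha subunit gene, was higher by 1.70 ± 0.31 (adjusted p = 0.000359). HSD3B1, CRH and PSG5 also passed the threshold between the lines under vehicle, at mean counts of at most 9.19 in any group. In all, 8 genes of the list were higher and 3 lower with S134A-GR under vehicle (25% and 26.5% of all genes), and 5 and 3 under TGFβ1 (23.1% and 25.7%).

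Related hormone subunits and receptors were hardly measured. Of 7 other glycoprotein hormone subunits and receptors, only TSHR was listed, with 4 reads over the 12 libraries, and none was tested; LHCGR, FSHR, FSHB and TSHB were not analysed here. GNRHR, a gonadotrope marker, averaged 16.2 to 26.3 normalized counts in the groups, and no comparison of it passed FDR 0.05.

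Of 10 genes for folding and glycosylation of gonadotropins, 9 were tested. With TGFβ1 1 rose and 1 fell in wt-GR cells (11.2% and 9.82% of all genes) and 0 rose and 1 fell in S134A-GR cells (10% and 8.69%); the 1 that fell in both was CHST9, a sulfotransferase of terminal N-acetylgalactosamine, by 0.99 (adjusted p = 0.0461) and 1.00 (adjusted p = 0.0481, limma). Between the lines, 1 was higher and 5 were lower with S134A-GR under vehicle (25% and 26.5% of all genes), and 1 and 6 under TGFβ1 (23.1% and 25.7%). B4GALNT3, which adds N-acetylgalactosamine to such glycans, was lower by 2.14 under vehicle (SE 0.13, adjusted p = 1.48e-08), its relative B4GALNT4 was higher by 0.53 ± 0.09 (adjusted p = 0.00018), and the chaperone gene CALR was lower by 0.34 (adjusted p = 1.16e-05).

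Over the 12 libraries, the gene whose pattern was most like the summed CGB count, among 13277 genes with a mean normalized count of at least 50, was CLTCL1, a clathrin heavy chain gene (Pearson's r = 0.996 on the log2 scale). MARCH4, a membrane ubiquitin ligase gene, CDC42SE1, NUAK1 and ARHGEF40 followed with r of 0.987 to 0.990. CLTCL1 averaged 1019 ± 50.9 and 3038 ± 13.2 normalized counts in wt-GR vehicle and TGFβ1 cells, and 1635 ± 37.7 and 4028 ± 149 in S134A-GR cells. The lowest values were those of PARP9 (r = -0.993) and ADORA2B, an adenosine receptor gene (r = -0.992). KCNA7, below that abundance limit, had r = 0.985. All points of these correlations share the same 4 groups, so r describes the order of the group means more than variation among libraries.

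Of 6 markers of cell types that the culture should not hold, 5 were tested. PTPRC (leukocytes) averaged 1.46 to 7.18 and LUM (fibroblasts) 0 to 3.20 normalized counts in the groups, and CD3E was not analysed here. The endothelial markers PECAM1 and VWF, at group means of 835 to 1358 and 181 to 396, fell with TGFβ1 in both lines, and PDGFRB (pericytes and fibroblasts), at 1912 to 3888, rose in both (FDR under 0.05 by limma). Their part in the values of the beta genes was not tested.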

How the data were processed

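RNA-seq libraries were TruSeq mRNA preparations sequenced as 75-base pairs. The deposited values are gene counts that the authors divided by DESeq2 size factors, a normalized signal per gene; the submitters' processing notes name FastQC 0.11.7, Subread featureCounts, DESeq2 1.22.2 and the build hg38, without the settings for multi-mapped reads or strand. All values were whole multiples of 1 read (100% within 0.01), so reads were recovered. Of reads at 1 to 20 per gene, 58.6 to 61.5% were even, so mates may have been counted singly and counting intervals are then too narrow. Groups followed the labels.

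Genes were tested with limma 3.58.1 (R 4.3.3) on log2(normalized count + 1) with a trend and 4 group means over 12 libraries, for 18579 genes with at least 10 reads in all; p-values were adjusted by Benjamini-Hochberg over all of them, and a call was FDR under 0.05. edgeR 4.0.16 on the recovered reads called 9452, 9106, 3892 and 3450 genes in the 4 comparisons and 78 for the difference of responses; DESeq2 1.42.0 was also run. The code was tested on simulated data with 200 genes changed 4-fold. Of these, 100% were recovered, and 9.09% of the calls at FDR under 0.05 were false. No changed gene was placed near the floor, so calls there were not tested.

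Members, lists and tests were chosen with earlier results of these data known. Named genes were all members; up to 6 genes per list with the largest change past FDR 0.05, and fixed factors; the 3 nearest neighbours on each side; and the 5 most and 2 least alike genes. Genes named beside these were chosen after their values were seen. Stretches and coordinates came from GENCODE v44 on hg38, and promoters from RefSeq. The promoter bases of the 7 genes matched hg38. Each promoter window adjoined the GENCODE gene except that of CGB7, which lay inside it.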

Additional observations from a re-analysis of the deposited data

Results flagged for a closer look

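Among the genes named or listed, 5 responded to TGFβ1 to a different extent in the 2 lines by the test of the difference itself (limma, FDR under 0.05). None of the gonadotropin beta genes was past that threshold in the main fit, which does not show equal responses. CGB8 was past it with DESeq2 and CGB5 without the third wt-GR vehicle library, and the summed CGB difference was -0.74 ± 0.18 (SE). PMEPA1, a feedback inhibitor of TGFβ signalling, differed by -0.72 ± 0.08 on the log2 scale (adjusted p = 0.000909), with a rise of 2.90 in wt-GR and 2.18 in S134A-GR cells. COL1A1 differed by -1.17 ± 0.14 (adjusted p = 0.00265), rising by 2.97 and 1.80. PDGFRB differed by -0.68 ± 0.07 (adjusted p = 0.000909), rising by 0.86 and 0.18. SDC1 and ENG, of the syncytiotrophoblast list, differed by less, -0.24 each (adjusted p = 0.0256 and 0.0446); SDC1 rose by 0.31 in wt-GR cells and its value in S134A-GR cells was 0.07 (adjusted p = 0.14), and ENG rose by 0.78 and 0.54.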

How the results depend on the processing

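All 6 members kept their direction and stayed past the FDR threshold for TGFβ1 in both lines under the 22 alternatives. CGB2 changed sign between the lines under vehicle (-0.04 without wt-GR vehicle replicate 2 or 3) and for the difference of responses (up to 0.32), as did CGB1 (0.02) and CGB (0.48) for that difference with 16 added. With 1 added, CGB also changed sign for that difference in some fits without 1 library, up to 0.22 without wt-GR vehicle replicate 2. Requiring a log2 size of 1 left 1767 (vehicle) and 1571 (TGFβ1) genes between the lines, 425 and 309 for TGFβ1 in wt-GR and S134A-GR cells, and 11 for the difference of responses; a size of 1.5 left 1016, 936, 231, 155 and 7. At 1.5 the members passing between the lines were 2 under vehicle and 0 under TGFβ1, and at 1 they were 0 under TGFβ1. For the difference of responses, DESeq2 called 211 genes and 1 member. The summed CGB log2 difference was 1.34 between the lines under vehicle and 2.96 for TGFβ1 in wt-GR cells when 16 was added before the logarithm, and 1.29 and 2.91 with LHB in the sum.

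Without 1 library at a time, members called between the lines under vehicle ranged from 4 to 5 of 6, beside 8478 to 9695 of all 18579 genes. Members called between the lines under TGFβ1 ranged from 1 to 3, beside 8063 to 9381 of all genes. For the difference of responses, members called ranged from 0 to 1, beside 22 (without wt-GR TGFβ1 replicate 1) to 166 (without wt-GR vehicle replicate 3) of all genes. CGB8 and LHB were past the threshold between the lines under TGFβ1 in 10 and 15 of 22 alternatives. Same-numbered libraries of different groups correlated at -0.105 to 0.128 after group means were removed, so no pairing by number was seen. With 3 libraries per group this cannot exclude that equal numbers mark a shared culture or run. With the number as a replicate block, 9425, 8908, 3678, 3198 and 58 genes were called in place of 9569, 9070, 3910, 3475 and 77. Under vehicle, CGB1 and CGB2 had 0 to 4 reads a library, and CGB1 passed the threshold between the lines in 2 of 22 alternatives and CGB2 in 0.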
